A study of Mus musculus with 2 samples.

Results

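Messenger RNA levels of 10 heat shock proteins and chaperones were examined in mature thymocytes. The genes were taken by symbol, as *Hspa1a*, *Hspa1b*, *Hspa8*, *Hsph1*, *Dnajb1*, *Hsp90aa1*, *Hsp90ab1*, *Hspa5*, *Hspd1* and *Hspe1*, and all 10 were listed among the 48321 gene symbols counted. Of these 10, 9 had at least 10 counts in the sum of both libraries and were tested, and *Hspa1a*, with 7 counts, was not. The cells were sorted CD4- mature thymocytes from MHC-II0:CD8ab Tg mice on the C57Bl/6 background, measured as replicate 1 and replicate 2. These mice lack MHC class II, carry a *Cd8* locus without the coding regions of both chains, and express CD8a and CD8b from cDNAs in *Rosa26* once Cre has removed a stop cassette. The labels name the cells in 2 ways, as CD4-CD8- in the titles and as CD8+ in the cell type field. All mice were of this genotype, and the wild-type libraries of the study are not analysed here. The values describe the transgenic cells, and the differences are between their libraries.

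Heat shock proteins are molecular chaperones that bind unfolded stretches of other proteins and help them to fold, to assemble or to be degraded. HSP70 proteins work in a cycle of ATP hydrolysis that J-domain proteins start and nucleotide exchange factors reset, and pass some of their clients to HSP90. Each compartment has its own set, with constitutive and inducible members in the cytosol, BiP in the endoplasmic reticulum (ER), and the barrel-shaped HSP60 with its HSP10 lid in the mitochondrion. After heat or other protein damage, heat shock factor 1 (HSF1) binds heat shock elements, which are alternating inverted repeats of GAA and TTC, and turns on the inducible genes.

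The libraries held 16732644 and 16245849 reads counted on genes, so that 3 counts, taken as the smallest level the depth can show, equal 0.179 and 0.185 CPM. CPM is a count scaled to library totals of 1000000 on genes. Levels are given in CPM, and as CPM per kb of merged exon where genes are compared with each other. The labels do not name the mice, and p-values measure only the difference between these libraries beyond counting error. *Xist* had 34 and 25266 counts and *Ddx3y*, on the Y chromosome, had 2450 and 0, so the libraries came from mice of different sex. Every difference between the replicates, that of *Hspa1b* included, cannot be told apart from a difference between the sexes. All 10 T cell markers listed were at 10 CPM or more in both libraries, and 5 of 6 erythroid markers, the globins among them, were at 0 counts in both. Reads aligning to several places are not counted on genes, and sequence shared among the globins was not examined.

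Together the 10 chaperones took 3494 and 3425 CPM in replicates 1 and 2, or 0.349% and 0.342% of the counts on genes. Most of this was *Hsp90ab1* and *Hspa8*, while both genes of inducible HSP70 were under 3 CPM in each library. Between the libraries, 1 of the 9 tested genes, *Hspa1b*, was called as different (a ratio of 2 or more at an adjusted p under 0.05), against 1.52% of all genes tested (242 of 15949, 150 of them higher in replicate 2 and 92 higher in replicate 1). With TMM library sizes this split was 98 and 100, with DESeq2 size factors 104 and 98. Without a minimum fold, 5 of the 9 differed, against 16.3% of all genes tested. By direction, 4 of the 9 were higher in replicate 1, against 2.82% of all genes (450 of 15949), and 1 was higher in replicate 2, against 13.5% (2146). This split over all genes depends on the scaling, with 876 higher in replicate 1 and 812 in replicate 2 under TMM and 739 and 992 under DESeq2. The test also resolves smaller ratios at larger counts, and no share among genes with counts like those of the chaperones was taken. With at least 100 counts, 410 of 10969 genes were higher in replicate 1 and 2212 in replicate 2. In bulk RNA, fewer cells with a transcript and less of it per cell cannot be told apart.

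**Figure D1:**
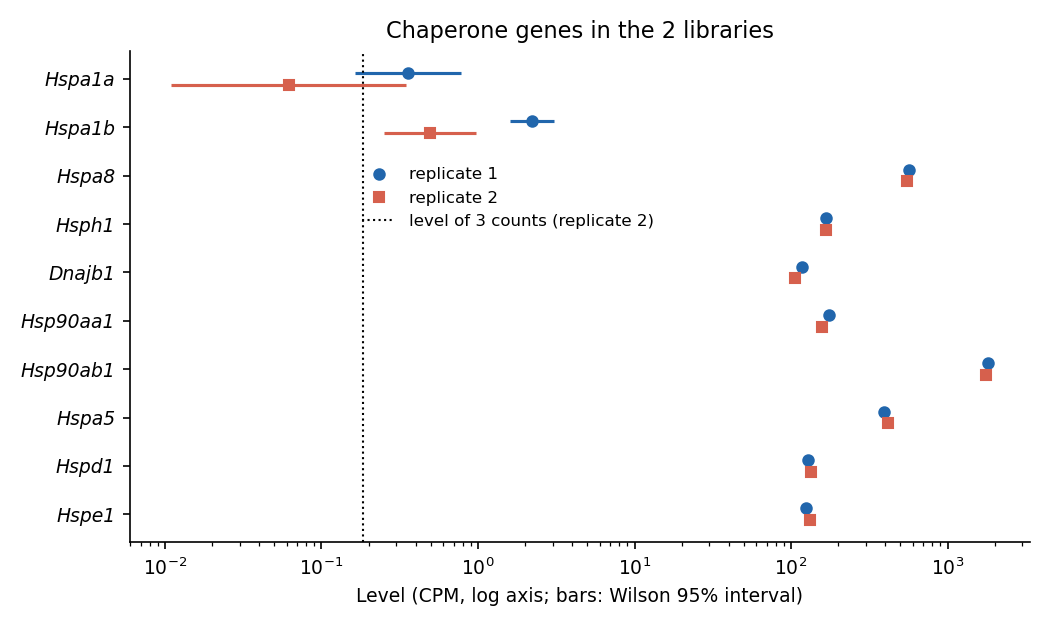
Level of each chaperone gene in CPM on a log axis, with a circle for replicate 1, a square for replicate 2, bars for Wilson 95% intervals and a dotted line at the level of 3 counts in replicate 2. *Hsp90ab1* lies highest at 1816 and 1756 CPM, 8 genes have points close together above 10 CPM, and the points of *Hspa1a* and *Hspa1b* lie apart and below 3 CPM.

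The inducible HSP70 genes *Hspa1a* and *Hspa1b* encode nearly the same cytosolic protein, which is scarce in unstressed cells of many kinds and strongly induced by HSF1. *Hspa1b* (ENSMUSG00000090877.3, 1 exon, minus strand of chr17:34956436-34959238 in GRCm38) had 37 counts in replicate 1 and 8 in replicate 2. These equal 2.21 CPM (Wilson 95% interval, 1.60 to 3.05) and 0.492 CPM (0.250 to 0.972), so the intervals of the libraries did not overlap. *Hspa1b* was 4.49-fold higher in replicate 1, with a log2 ratio of replicate 2 to replicate 1 of -2.17 (exact 95% interval, -3.48 to -1.04; adjusted p = 0.000308 by the exact binomial test). It also passed the exact test of edgeR, run with the biological coefficient of variation set to 0.1 (adjusted p = 0.0231). Among the 2684 genes with 0.5 to 2 times its counts, the middle 95% of log2 ratios ran from -1.19 to 1.41, and *Hspa1b* lay outside that range.

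*Hspa1a* (ENSMUSG00000091971.3, 1 exon, minus strand of chr17:34969190-34972156) had 6 counts in replicate 1 and 1 in replicate 2, or 0.359 and 0.0616 CPM. The second value is below the smallest level the depth can show. Its log2 ratio was -2.54, with an exact 95% interval from -8.07 to 0.50 that includes 0. Summed, the pair had 43 and 9 counts, or 2.57 and 0.554 CPM, with a log2 ratio of -2.21 (exact 95% interval, -3.44 to -1.16). Both genes were thus higher in replicate 1 in their counts, though the difference passed the test for *Hspa1b* alone, the one of the pair that was tested. The genes are near-identical copies, and 1716 windows of 50 bases, 58.8% of those of *Hspa1a* and 62.3% of those of *Hspa1b*, occur in both. Reads from these windows cannot be placed on one gene, and the longest stretches without shared windows are the last parts of the transcripts, from base 2197 to 2967 in *Hspa1a* and from base 2136 to 2803 in *Hspa1b*. The counts of the pair are therefore uncertain and low estimates. *Hspa1a* also overlaps 564 bases of exon of *Gm20481* on the opposite strand, which had 0 counts in both libraries. Where strand is not used, reads in this overlap cannot be told apart, and the 0 counts do not show whether any were lost.

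The sequences upstream of both genes are shown because the copies are alike there too. In the 250 bases before the transcription start (RefSeq, GRCm38.p6, minus strand, 5′ to 3′), they differed at 3 bases, an identity of 98.8%. Capitals mark the match to a heat shock element of 2 units, GAANNTTC, from base -104 to base -97, at the same place in both. Only exact letters were searched, so units that differ from GAA or TTC, or are spaced otherwise, are not marked.
Hspa1a, chr17:34972157-34972406: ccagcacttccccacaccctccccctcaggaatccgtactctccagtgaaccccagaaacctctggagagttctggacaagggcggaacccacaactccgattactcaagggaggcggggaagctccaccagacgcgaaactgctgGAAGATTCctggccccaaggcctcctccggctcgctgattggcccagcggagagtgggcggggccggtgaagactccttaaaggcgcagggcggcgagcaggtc
Hspa1b, chr17:34959239-34959488: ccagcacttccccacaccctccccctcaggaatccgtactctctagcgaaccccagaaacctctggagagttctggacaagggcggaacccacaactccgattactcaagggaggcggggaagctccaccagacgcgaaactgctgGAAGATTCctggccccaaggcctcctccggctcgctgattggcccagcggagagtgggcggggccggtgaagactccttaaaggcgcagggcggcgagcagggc
A heat shock element of 2 or more units, GAANNTTC or TTCNNGAA on either strand, was present in 15.1% of 32851 RefSeq windows of 300 bases, from 250 before to 50 after a start. Of the 10 windows of the chaperone genes, 6 held it, for 5 of the 7 genes with a window, *Hspa1a*, *Hspa1b*, *Hspd1*, *Hspe1* and *Hsph1*. The finds are not all separate, since *Hspa1a* and *Hspa1b* are near-identical there and *Hspd1* and *Hspe1* hold the same site. These letters were not in the windows of *Dnajb1* and *Hspa5*. A match is a description of the sequence, and binding was not measured.

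**Figure D2:**
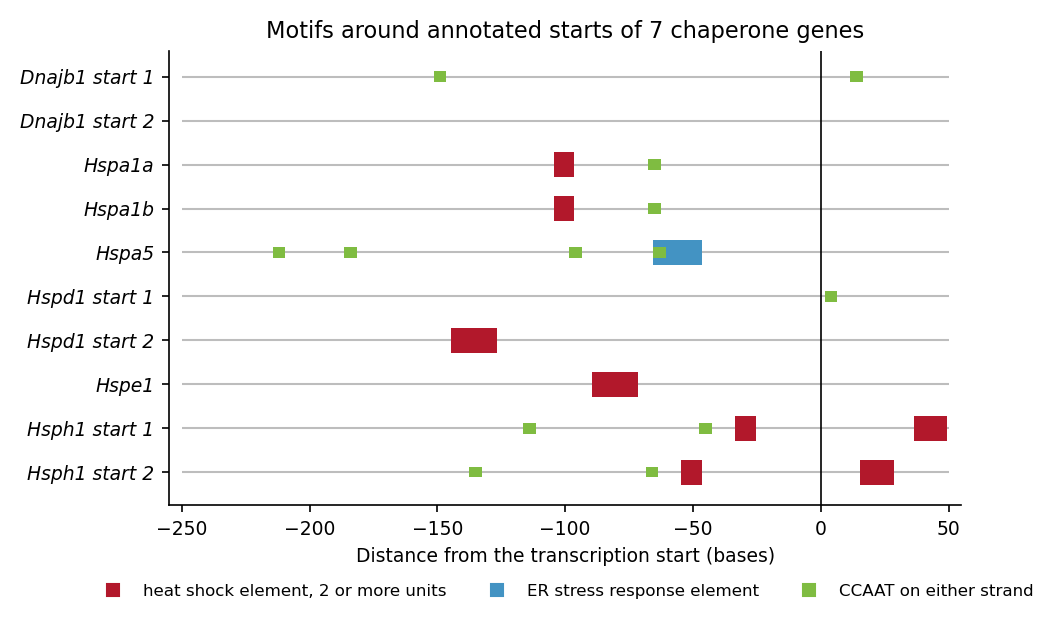
Positions of motifs in the 10 RefSeq windows of 7 chaperone genes, by distance in bases from each annotated transcription start (vertical line), with genes that have more than 1 start shown once for each. Red boxes are heat shock elements of 2 or more units, the blue box is the ER stress response element of *Hspa5*, and green boxes are CCAAT on either strand, which 37.4% of all windows hold.

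Constitutive HSP70, encoded by *Hspa8* (HSC70), folds newly made proteins and uncoats clathrin vesicles. It lies on the plus strand of chr9:40800984-40810087 (ENSMUSG00000015656.17, 9 exons). *Hspa8* had 9553 and 9002 counts, or 571 CPM in replicate 1 and 554 CPM in replicate 2. Its values were close, with a mean of 563 ± 11.9 CPM (SD, n = 2) and a log2 ratio of -0.04 (adjusted p = 0.160 by the exact binomial test). With library sizes by TMM or DESeq2, or without mitochondrial and ribosomal RNA genes, the difference was larger, with log2 ratios from -0.12 to -0.10. It then passed the exact binomial test (adjusted p = 4.72e-07, 2.80e-05 and 7.83e-05). Per kb of exon, *Hspa8* was 168 times *Hspa1b* in replicate 1 and 733 times *Hspa1b* in replicate 2. Against *Hspa1a* and *Hspa1b* summed, these ratios were 146 and 656. With shared windows taken out of the exon lengths, they were 105 and 456 against *Hspa1b* and 89.3 and 403 against the sum. The constitutive form was the higher in both libraries by each of these measures. Windows shared with other genes made up 39.4% of those of *Hspa8*, nearly all of them with 12 pseudogenes, and its exons also hold *Snord14c*, *Snord14d* and *Snord14e* on the same strand.

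The partners of HSP70 in the cytosol were found at lower levels. *Dnajb1* (HSP40) is a J-domain protein that stimulates the ATPase of HSP70, and lies on the plus strand of chr8:83608193-83612653. It had 1974 and 1731 counts, or 118 CPM in replicate 1 and 107 CPM in replicate 2, a mean of 112 ± 8.08 CPM (SD, n = 2). Its log2 ratio was -0.15 (exact 95% interval, -0.24 to -0.05; adjusted p = 0.0171 by the exact binomial test), a difference beyond counting error but far under 2-fold. *Hsph1* (HSP110), a relative of HSP70 that serves it as a nucleotide exchange factor, lies on the minus strand of chr5:149614287-149636376. *Hsph1* had 2792 and 2734 counts, or 167 and 168 CPM, a mean of 168 ± 1.01 CPM (SD, n = 2). Its log2 ratio of 0.01 (exact 95% interval, -0.06 to 0.09; adjusted p = 0.911) turned to -0.0663 with TMM library sizes, to -0.0493 with DESeq2 size factors and to -0.0445 without mitochondrial and ribosomal RNA genes. Per kb, *Hspa8* was 3.74 ± 0.190 times *Dnajb1* and 5.67 ± 0.154 times *Hsph1* (SD, n = 2). With shared windows taken out of the exon lengths, these ratios were 6.14 ± 0.312 and 9.36 ± 0.254 (SD, n = 2), since *Hsph1* shared no window with other genes and *Dnajb1* 0.412%, against the 39.4% of *Hspa8*. With the longest coding transcript, the ratio to *Dnajb1* was 6.28 ± 0.319 (SD, n = 2).

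*Hsph1* holds 2 groups of heat shock units, shown because the second has 3 units in a row, which was found in 0.603% of all windows. Both are on the minus strand of GRCm38.p6, written 5′ to 3′, with the units in capitals.
Hsph1, chr5:149636356-149636375: gaatctTTCTCGAAggctcg
Hsph1, chr5:149636287-149636306: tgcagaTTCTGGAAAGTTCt
Counted from the more upstream of its RefSeq starts, at 149636336, the first element spans bases -33 to -26. The second lies after that start, from base 37 to base 49. The gene span given above, from GENCODE M21, begins further upstream, at 149636376, and both elements lie within it.

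HSP90 keeps kinases, steroid receptors and other signalling proteins in a state that can be activated, and in the cytosol it has a constitutive form, HSP90β, and a more inducible form, HSP90α. HSP90β is encoded by *Hsp90ab1*, on the minus strand of chr17:45567775-45573271 (ENSMUSG00000023944.14, 11 exons). *Hsp90ab1* had 30382 and 28526 counts, or 1816 CPM in replicate 1 and 1756 CPM in replicate 2. At 595 ± 14.1 CPM per kb (SD, n = 2), it was the highest of the 10 and stood at rank 46 of 46294 genes with a length. Its log2 ratio was -0.05 (exact 95% interval, -0.07 to -0.02; adjusted p = 0.000774 by the exact binomial test), a small difference that the large count resolved.

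HSP90α is encoded by *Hsp90aa1*, on the minus strand of chr12:110690605-110702728 (ENSMUSG00000021270.13, 11 exons). *Hsp90aa1* had 2935 and 2574 counts, or 175 CPM in replicate 1 and 158 CPM in replicate 2, with the higher value in replicate 1. Its log2 ratio was -0.15 (exact 95% interval, -0.22 to -0.07; adjusted p = 0.00227 by the exact binomial test). Per kb, *Hsp90ab1* exceeded *Hsp90aa1* by 13.6 times in replicate 1 and 14.5 times in replicate 2. This ratio depends on the copies, since 47.5% of the windows of *Hsp90aa1* occur in 4 pseudogenes against 3.44% of those of *Hsp90ab1*. When shared windows were taken out of the exon lengths, the levels were 617 CPM per kb for *Hsp90ab1* and 80.9 CPM per kb for *Hsp90aa1*, with the constitutive form still the higher.

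**Figure D3:**
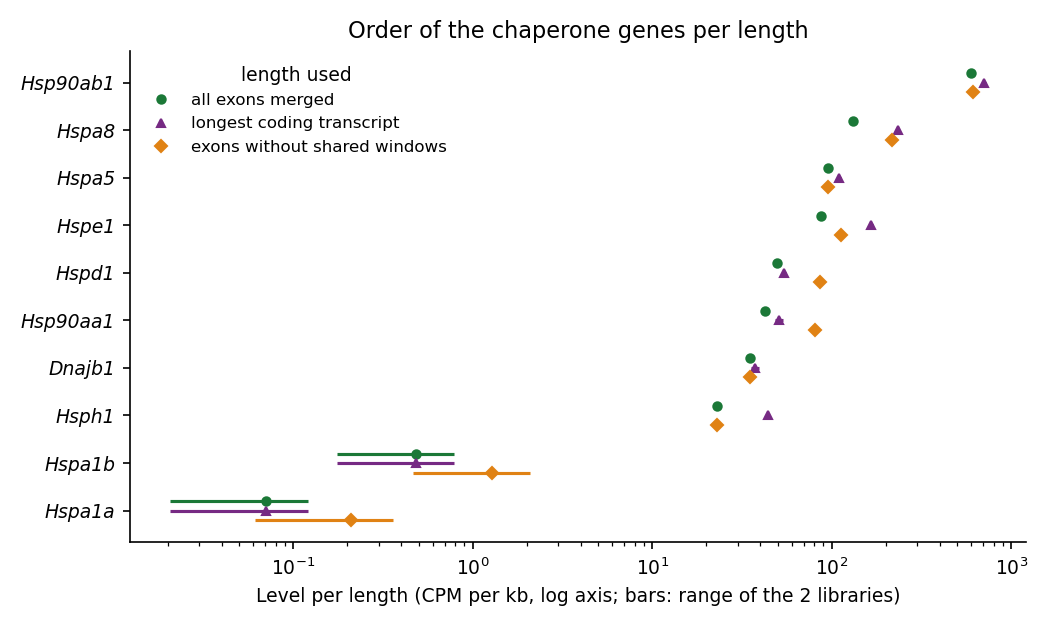
Level of each chaperone gene in CPM per kb of merged exon on a log axis, ordered from highest to lowest, with circles for all exons merged, triangles for the longest coding transcript and diamonds for exons without shared windows, each the mean of the 2 libraries with their range as a bar. With all exons merged the order runs from *Hsp90ab1* at 595 to *Hspa1a* at 0.0708 CPM per kb, and no ranges of neighbouring genes overlap.

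In the ER, *Hspa5* encodes BiP (GRP78), the HSP70 that binds proteins entering the secretory pathway and holds the sensors of the unfolded protein response in check. It lies on the plus strand of chr2:34771970-34777547 (ENSMUSG00000026864.13, 9 exons). *Hspa5* had 6548 and 6725 counts, or 391 CPM in replicate 1 and 414 CPM in replicate 2, a mean of 403 ± 16.0 CPM (SD, n = 2). It was the 1 chaperone that passed the exact binomial test with the higher level in replicate 2, with a log2 ratio of 0.08 (exact 95% interval, 0.03 to 0.13; adjusted p = 0.0116). The median log2 ratio over all genes tested was also 0.08. With TMM or DESeq2 library sizes, or without mitochondrial and ribosomal RNA genes, the difference of *Hspa5* no longer passed (adjusted p = 0.9996, 0.734 and 0.643). Per kb, *Hspa8* in the cytosol was 1.38 ± 0.0837 times *Hspa5* (SD, n = 2). This ratio was 2.15 ± 0.131 with the longest coding transcript and 2.27 ± 0.138 without shared windows (SD, n = 2).

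The promoter of *Hspa5* is shown because it holds the ER stress response element, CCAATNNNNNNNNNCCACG, which was found in 0.119% of all windows (39 of 32851). The element, in capitals, spans bases -65 to -47 before the RefSeq start at 34772090 on the plus strand of GRCm38.p6. The gene span given above, from GENCODE M21, begins further upstream, at 34771970, and the element lies within it.
Hspa5, chr2:34772020-34772048: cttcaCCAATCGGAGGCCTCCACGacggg
No other chaperone gene with a window had these letters in it.

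In the mitochondrial matrix, *Hspd1* encodes HSP60, which forms the folding chamber, and *Hspe1* encodes HSP10, which closes it. The genes stand head to head on chromosome 1, with *Hspd1* on the minus strand of chr1:55077835-55088243 and *Hspe1* on the plus strand of chr1:55088132-55091307, and their exons overlap by 112 bases. *Hspd1* had 2143 and 2193 counts, or 128 and 135 CPM, a mean of 132 ± 4.89 CPM (SD, n = 2). *Hspe1* had 2089 and 2146 counts, or 125 and 132 CPM, a mean of 128 ± 5.13 CPM (SD, n = 2). Neither passed the exact binomial test, with log2 ratios of 0.08 for both (exact 95% intervals, -0.01 to 0.16 and -0.01 to 0.17; adjusted p = 0.257 and 0.221). With TMM library sizes the log2 ratio of *Hspd1* was -0.0027. The counts on *Hspe1* were 0.975 times those on *Hspd1* in replicate 1 and 0.979 times in replicate 2. Per kb the ratio was 1.75 in each library, 1.75 ± 0.00477 (SD, n = 2), and *Hspe1* was the higher over 1474 bases of exon against 2642. The ratio depends on the length used, at 3.06 ± 0.00834 with the longest coding transcript and 1.31 ± 0.00358 without shared windows (SD, n = 2). Windows shared with other genes made up 42.1% of those of *Hspd1* and 22.8% of those of *Hspe1*, so both levels are low estimates, and where strand is not used reads in the overlap cannot be told apart.

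Between the starts of *Hspd1* and *Hspe1* lies 1 heat shock element of 4 units in a row, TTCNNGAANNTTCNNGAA. It is shown, on both strands, because it was found in 5 of 32851 windows (0.0152%), and 2 of these 5 were the windows of these genes. Each line gives the same site of GRCm38.p6, read 5′ to 3′ on the strand of the gene, with the element, chr1:55088059-55088076, in capitals.
Hspd1, chr1:55088053-55088082, minus strand: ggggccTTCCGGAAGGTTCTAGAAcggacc
Hspe1, chr1:55088053-55088082, plus strand: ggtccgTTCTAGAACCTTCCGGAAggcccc
The element spans bases -89 to -72 before the start of *Hspe1* and bases -144 to -127 before the start of *Hspd1* at 55087932, and these starts are 216 bases apart. A further annotated start of *Hspd1*, at 55088243, lies 95 bases from that of *Hspe1* with no such element in its window.

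Per kb of exon, the chaperones ran in the order *Hsp90ab1*, *Hspa8*, *Hspa5*, *Hspe1*, *Hspd1*, *Hsp90aa1*, *Dnajb1*, *Hsph1*, *Hspa1b* and *Hspa1a*. Means per kb were 131 ± 2.76 CPM for *Hspa8*, 95.2 ± 3.78 for *Hspa5*, 87.2 ± 3.48 for *Hspe1* and 49.8 ± 1.85 for *Hspd1* (SD, n = 2). They were 42.5 ± 3.05 CPM for *Hsp90aa1*, 23.1 ± 0.139 for *Hsph1*, 0.482 ± 0.434 for *Hspa1b* and 0.0708 ± 0.0708 for *Hspa1a* (SD, n = 2), with *Dnajb1* at 36.8 CPM per kb in replicate 1 and 33.3 in replicate 2. In this order the values of the 2 libraries did not overlap between any neighbours. With the length of the longest coding transcript, *Hspe1* came before *Hspa5* and *Hsph1* before *Dnajb1*, and *Hspd1* and *Hsp90aa1* overlapped. With shared windows taken out of the exon lengths, *Hspe1* also came before *Hspa5*, and *Hspd1* and *Hsp90aa1* also overlapped. The first and second and the last 2 places were the same with each of the 3 lengths.

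By compartment, 4 of the 6 tested genes of the cytosol, *Hspa1b*, *Dnajb1*, *Hsp90aa1* and *Hsp90ab1*, were lower in replicate 2 at an adjusted p under 0.05, against 2.82% of all genes tested, and none was higher. With TMM or DESeq2 library sizes, or without mitochondrial and ribosomal RNA genes, *Hspa8* passed as well, which made 5 of the 6. Under these scalings, 876, 739 and 702 of the 15949 genes tested were higher in replicate 1, against 450 with totals on genes. With TMM the log2 ratios of *Dnajb1*, *Hsp90aa1* and *Hsp90ab1* were -0.23, -0.23 and -0.13, against -0.15, -0.15 and -0.05 with totals on genes. The 3 genes of the ER and the mitochondrion had log2 ratios of 0.08, the same to 2 decimals as the median of all genes tested. By edgeR's exact test with a fixed coefficient of variation of 0.1, the 8 tested genes other than *Hspa1b* had an adjusted p of 1. For the 8 genes other than *Hspa1a* and *Hspa1b*, the log2 ratio lay within the middle 95% of genes with 0.5 to 2 times their counts.

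**Figure D4:**
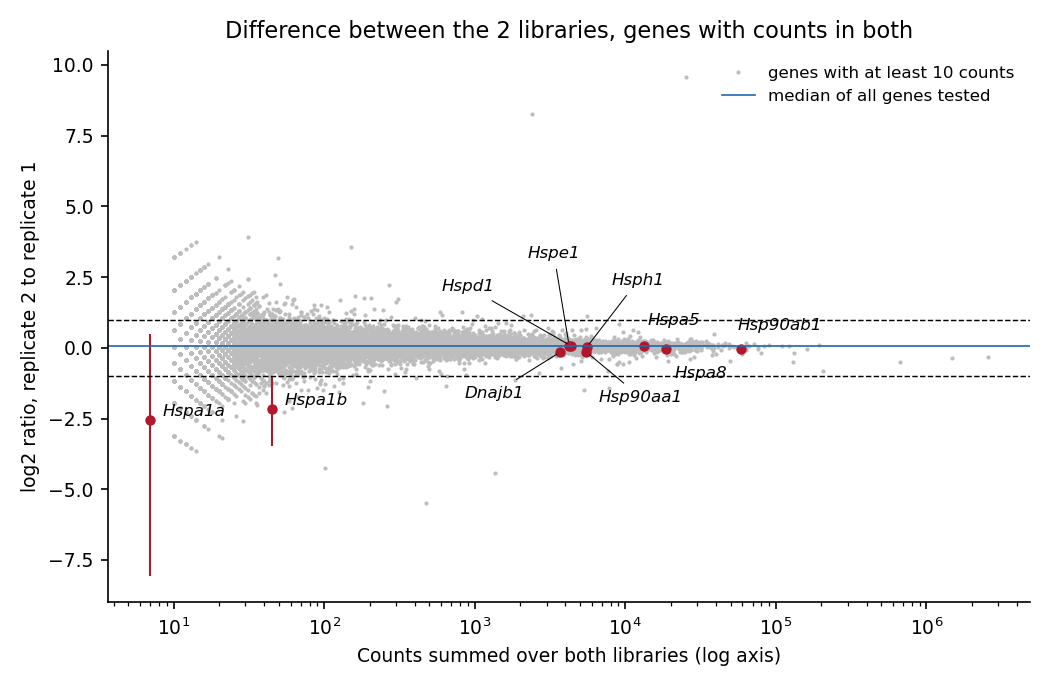
Log2 ratio of replicate 2 to replicate 1 against the summed counts on a log axis, with chaperones in red, their exact 95% intervals as bars, all other genes with at least 10 counts and counts in both libraries in grey, the median of 0.08 as a blue line and 2-fold differences as dashed lines. *Hspa1a* and *Hspa1b* lie below the lower dashed line, and the other 8 chaperones lie beside the median.

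The rest of the chaperone network, 113 listed genes of which 104 were tested, was near the median of all genes. The listed genes had a median log2 ratio of 0.07, against 0.08 over all genes tested, and 91 of the 113 were at 10 CPM or more in both libraries. At an adjusted p under 0.05 by the exact binomial test, 17 of the 104 differed, near the 16.3% of all genes tested, with 16 higher in replicate 2 and 1 higher in replicate 1. As over all genes, this split depends on the scaling, and with TMM library sizes it was 4 and 7, with DESeq2 size factors 7 and 5. The counts by direction in the lists that follow are to be read against 13.5% of all genes higher in replicate 2 and 2.82% higher in replicate 1. With at least a 2-fold difference as well, 1 remained, *Hspa12a*, a distant relative of HSP70, with 2 counts in replicate 1 and 14 in replicate 2 (log2 ratio 2.85, exact 95% interval 0.73 to 6.03, adjusted p = 0.0174), and it did not pass edgeR's exact test (adjusted p = 0.402). No listed network gene passed that test at an adjusted p under 0.05.

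*Hsf1*, the factor that binds heat shock elements, had 922 and 1033 counts, or 55.1 CPM in replicate 1 and 63.6 CPM in replicate 2. Its log2 ratio was 0.21 (exact 95% interval, 0.08 to 0.34; adjusted p = 0.0147 by the exact binomial test), which is the opposite sign to that of *Hspa1b*. The median log2 ratio over all genes tested was 0.08, and *Hsf1* did not pass edgeR's exact test. Of the 6 heat shock factor genes listed, 2 were at 0 counts in both libraries and 2 of the 4 tested were higher in replicate 2. The highest per kb was *Hsbp1*, which encodes a binding protein and inhibitor of HSF1, at 31.6 ± 1.58 CPM per kb (SD, n = 2).

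The other HSP70 and HSP110 genes included *Hspa9*, the HSP70 of the mitochondrion and the highest of its list, at 44.2 ± 1.41 CPM per kb (SD, n = 2). *Hspa9* had 186 CPM in replicate 1 and 195 CPM in replicate 2, and *Hspa4*, an HSP110 of the cytosol, had 226 and 239 CPM. *Hyou1*, the HSP110 of the ER, had 124 and 141 CPM and was higher in replicate 2 by a log2 ratio of 0.19 (adjusted p = 0.000275 by the exact binomial test). It did not pass edgeR's exact test. In this list 3 of 10 tested genes were higher in replicate 2 and none was higher in replicate 1.

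J-domain co-chaperones, which hand clients to HSP70, were all at 10 CPM or more in both libraries (22 of 22). The highest per kb was *Dnaja2* at 58.3 ± 2.28 CPM per kb, and 4 of the 22 were higher in replicate 2 and 1 in replicate 1 at an adjusted p under 0.05. Among 12 nucleotide exchange factors and HSP70 partners, *Bag1* was highest at 52.4 ± 2.56 CPM per kb, and 2 were higher in replicate 2. Of 13 HSP90 co-chaperones, 2 were higher in replicate 2, and the highest per kb was *Stip1* (HOP), which joins HSP70 to HSP90, at 91.1 ± 3.57 CPM per kb. In the chaperonin TRiC and prefoldin, which fold actin and tubulin, 2 of 14 genes were higher in replicate 2, and *Cct2* was highest at 117 ± 4.02 CPM per kb (all SD, n = 2).

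Among 17 genes of ER folding and the unfolded protein response, *Calr*, a lectin chaperone, was the highest at 165 ± 3.74 CPM per kb (SD, n = 2). *Hsp90b1* (GRP94), the HSP90 of the ER, had 316 CPM in replicate 1 and 328 CPM in replicate 2. *Xbp1* and *Atf4*, transcription factors of this response, had 41.3 and 47.3 CPM and 112 and 115 CPM, and *Ddit3* (CHOP), a further factor, had 22.5 and 25.4 CPM. None of these 5 genes passed the exact binomial test, and 1 of the 17 was higher in replicate 2. Among 9 mitochondrial chaperones and proteases none passed, and *Trap1*, the HSP90 of the mitochondrion, was highest at 40.4 ± 1.09 CPM per kb (SD, n = 2).

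Small heat shock proteins, which hold unfolding proteins without ATP, were mostly near or at 0. Of the 10 listed, 3 were tested and 4 had 0 counts in both libraries. *Hspb1*, the HSF1 target HSP27, named after its values were seen, had 2 counts in each, below the smallest level the depth can show. *Hspb11* was the highest at 3.50 ± 0.342 CPM per kb (SD, n = 2), or 113 and 126 counts.

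**Figure D5:**
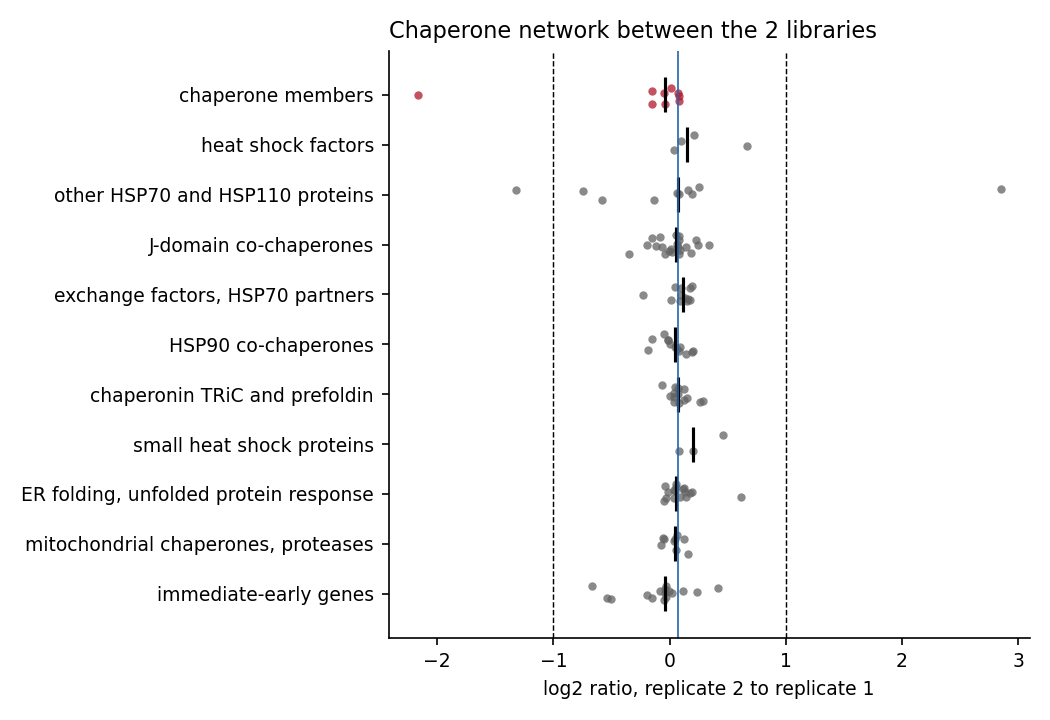
Log2 ratio of replicate 2 to replicate 1 for each tested gene of the chaperones and the lists (points), with the median of each list as a black tick, the median of all genes tested as a blue line and 2-fold differences as dashed lines. Most points lie near the blue line, *Hspa1b* and *Hspa12a* lie beyond the dashed lines on opposite sides, and the point at -1.32, also beyond, is a gene that did not pass the test.

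Immediate-early genes, which many stimuli induce quickly and for a short time, were examined beside the chaperones. *Fos* had 95 and 65 counts (log2 ratio -0.50, adjusted p = 0.136 by the exact binomial test) and *Egr1* had 1079 and 1028 counts (log2 ratio -0.03, adjusted p = 0.863). *Jun* had 116 counts in replicate 1 and 71 in replicate 2, a log2 ratio of -0.67. Its adjusted p was 0.0175 by the exact binomial test and 0.811 by edgeR's exact test. *Jun* thus had the same sign as *Hspa1b*, but under 2-fold, and 2 other genes of the list, one of them *Jund*, the highest at 156 ± 17.8 CPM per kb (SD, n = 2), were higher in replicate 2. The list had 16 tested genes and a median log2 ratio of -0.04.

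Markers of other cells were read beside the difference in *Hspa1b*. The B cell markers summed to 13.6 CPM in replicate 1 and 15.5 CPM in replicate 2, mostly *Cd79b*, and the myeloid and dendritic cell markers to 15.2 and 16.6 CPM. In the latter list *Csf1r* had 163 and 191 counts, *Cd68* 51 and 47, and *Itgam* 34 and 18. The erythroid markers other than *Alas2*, with 8 and 10 counts, were at 0. The double-positive thymocyte markers summed to 18.6 and 17.2 CPM, mostly *Dntt* at 13.4 and 13.0 CPM, and 0 of 4 tested passed. Epithelial and stromal markers summed to 81.0 and 73.0 CPM, mostly *Pecam1*, and *Col1a1* had 3 and 16 counts (adjusted p = 0.0186 by the exact binomial test). *Cd4*, whose product the sort selected against, had 12 and 27 counts. Apart from *Pecam1* and *Col1a1*, no marker of these other cells passed, and the part of any of them in the difference of *Hspa1b* was not tested.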

How the data were processed

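RNA was sequenced from sorted thymocytes in 2 libraries of 1 genotype. Per the labels and the methods of the study, poly(A) RNA was read as single-end reads of 50 bases, mapped onto mm10 (GRCm38) with TopHat2 2.1.1 and counted per gene with HTSeq 0.6.1. The authors deposited raw counts of reads per gene symbol, with no normalization. Neither the annotation nor the strand setting of the counting is given in the sources used here. Reads aligning to several places stand on a separate line of each table and not on genes, so a gene with near-identical copies is counted mainly on its unique stretches.

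Counts were divided by the total on genes of the library (16732644 and 16245849, without the summary lines) and scaled to totals of 1000000 (CPM). At this depth 3 counts equal 0.179 and 0.185 CPM, and 2 libraries bound the precision of every SD. Levels per kb used the merged exons in GENCODE M21, a GRCm38 annotation, in which 46294 of 48321 symbols had a length. Genes with at least 10 counts in the sum of both libraries (15949) were then set against the share of the library totals by an exact, two-sided binomial test, adjusted over all of them after Benjamini and Hochberg, and a gene was called at an adjusted p under 0.05 and a ratio of at least 2. Intervals of log2 ratios are exact 95% binomial intervals, those of single levels are Wilson 95% intervals, and both reflect counting error alone, as reads that carry no molecular identifiers may stem from the same molecule. Its p-values compare the libraries, not conditions.

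The alternatives were edgeR 4.0.16 TMM factors (0.973 and 1.03), DESeq2 1.42.0 size factors (0.993 and 1.01), totals from which 393 mitochondrial and ribosomal RNA genes were removed, minimum sums of 1 or 100 counts, no minimum fold, other gene lengths, leaving out each replicate, and the exact test of edgeR at a set biological coefficient of variation of 0.1. Shared sequence was the percent of windows of 50 bases in the transcripts of a gene that also occur in transcripts of other genes on either strand. Promoter sequences came from RefSeq on GRCm38.p6, where 10 windows matched 7 of the 10 genes. *Hspa8*, *Hsp90aa1* and *Hsp90ab1* were without an entry. Motifs were searched on both strands by exact letters, with N as any base, and may overlap. Imperfect heat shock units were therefore not found.

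The genes described and the lists were chosen with earlier results of these data known. Named genes are the 10 chaperones, the gene with the highest level per kb in each list, every listed gene that was called, and *Hsf1*, *Hspa9*, *Hspa4*, *Hsp90b1*, *Hyou1*, *Xbp1*, *Atf4*, *Ddit3*, *Fos*, *Jun* and *Egr1*. Outside this rule, *Xist*, *Ddx3y* and *Cd4* describe the libraries, genes that share sequence with the 10 are named beside them, and *Hspb1*, *Csf1r*, *Itgam*, *Hspa1l*, *Hspa2*, *Bag3* and *Dnajb5* were chosen after their values were seen. The wild-type libraries of the study were not analysed here. Computations ran in Python 3.11.15 with scipy 1.17.1 and statsmodels 0.14.6, and in R 4.3.3.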

Additional observations from a re-analysis of the deposited data

Results flagged for a closer look

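Pseudogene copies of the chaperones hold counts that the comparisons above did not use, and there are no control samples to set them against. Of the 13 pseudogenes that share at least 100 windows of 50 bases with one of the 10 genes, 12 were listed in the count tables, and 3 had more than 3 counts in both libraries. *Gm5511*, which shares 213 windows with *Hsp90aa1*, had 60 and 85 counts, a mean of 4.41 CPM. *Gm37348*, which shares 109 windows with *Hspa8*, had 10 and 7 counts, a mean of 0.514 CPM. *Gm6210*, which shares 823 windows with *Hspa8*, had 5 and 8 counts, a mean of 0.396 CPM. Against the genes they resemble these counts are small, since *Hsp90aa1* had 2935 and 2574 and *Hspa8* had 9553 and 9002. Whether they are reads of the pseudogenes or of the genes was not tested.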

How the results depend on the processing

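With 2 libraries of 1 genotype, no paired analysis was possible because there is no second group to pair with. The mean level of each gene moved by less than its SD under TMM and DESeq2 library sizes (10 of 10). This was fixed in advance, since these sizes raise every level in replicate 1 and lower it in replicate 2 by a like factor. What changed was the SD, which with TMM went from 11.9 to 33.6 CPM for *Hspa8* and from 16.0 to 0.495 CPM for *Hspa5*. With 2 libraries, leaving 1 out gives the value of the other. *Hspa1b* is then 0.492 (without replicate 1) or 2.21 CPM (without replicate 2) in place of 1.35, and *Hspa1a* 0.0616 or 0.359 in place of 0.210. Without 393 mitochondrial and ribosomal RNA genes in the totals, 8 of 10 levels rose by more than their SD and the sum over the 10 genes rose from 3459 to 4040 CPM. The number of genes higher in replicate 2 was 4, and 2 with TMM. *Hspa1b* was the 1 gene called under each scaling, with a minimum of 1 count and by edgeR. With at least 100 counts 0 were called (*Hspa1b* has 45 counts and was not tested), though 4 genes had an adjusted p under 0.05, and with no minimum fold 5 were called. For the 113 network genes the count of 1 became 0 with at least 100 counts and by edgeR, and 17 with no minimum fold. The log2 ratio of *Hsph1* turned from 0.01 to -0.0663 (TMM), -0.0493 (DESeq2) and -0.0445 (without mitochondrial and ribosomal RNA genes), and that of *Hspd1* from 0.08 to -0.0027 (TMM). These shifts follow from the library sizes, since TMM moved the median of all genes from 0.08 to -0.0027. Over all genes, 242 were called, 198 with TMM, 202 with DESeq2, 55 with at least 100 counts and 60 by edgeR. With the longest coding transcript as length, 6 of 10 genes kept their place in the order per kb, and 8 without shared windows. Depth limits *Hspa1a* and *Hspa1b*, where a few counts set each ratio.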

Other observations

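Other HSP70 genes and cofactors were looked at after their values were seen. *Hspa1l*, a relative of inducible HSP70 best known from testis, had 34 and 22 counts (log2 ratio -0.59, exact 95% interval -1.43 to 0.23, adjusted p = 0.360 by the exact binomial test), and it shares 232 windows of 50 bases with *Hspa1a*. *Hspa2*, also best known from testis, had 19 and 11 counts (log2 ratio -0.75, exact 95% interval -1.96 to 0.40, adjusted p = 0.446). *Bag3*, a cofactor of HSP70 that heat shock induces, had 74 and 80 counts (log2 ratio 0.16, exact 95% interval -0.32 to 0.63, adjusted p = 0.757). With totals on genes, *Dnajb5*, a J-domain protein, was the 1 listed network gene higher in replicate 1 at an adjusted p under 0.05. It had 323 and 246 counts (log2 ratio -0.35, adjusted p = 0.0308 by the exact binomial test) and did not pass edgeR's exact test. The number of such network genes depends on the scaling, at 7 with TMM library sizes and 5 with DESeq2 size factors.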
